A study of Homo sapiens with 6 samples.

Results

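The HOX genes were taken from the table by symbol, as every row named HOXA, HOXB, HOXC or HOXD followed by a number only, which left out antisense and readthrough names. This rule found 36 of the 31999 genes listed, and of the 39 human HOX genes in GENCODE 44 there was no row named HOXC5, HOXC13 or HOXD4, so those genes were not analysed here. RNA came from HEL, a human erythroleukemia cell line, transduced with a lentiviral control hairpin (shCtrl, 3 libraries) or a hairpin against TMIGD2 (shTMIGD2, 3 libraries), a surface receptor of the CD28 family. Per the study's methods, transduced lines were selected with puromycin. The labels give no treatment beyond the hairpin and call the 3 libraries of a group biological replicates. All values come from 1 cell line, and the labels do not say which of the study's hairpins against TMIGD2 was used.

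The level of each gene is the authors' mean log2 CPM, the log2 of CPM (counts of a gene per 1000000 counted reads) averaged over the libraries. It is 1 value for shCtrl and shTMIGD2 cells together, so no value per library, no spread between replicates and no difference between the groups could be given from it, and no test was made. The authors' own comparison of the 2 groups was not used here. A gene could thus owe its mean level to either group. TMIGD2 itself, the targeted gene, had a mean of 4.08 on the log2 CPM scale, which as a mean over both groups does not check the hairpin. The depth was read from the genes with the fewest reads, whose CPM values stood at repeated levels 0.00526 CPM apart. If 1 step is 1 read in 1 of the 6 libraries, a library held on average 31690000 counted reads, and 1 CPM stands for about 31.7 reads per library. The lowest level, which 2234 genes shared, was 0.0736 CPM (-3.76 on the log2 scale), and this floor includes an offset, so low genes are overstated and folds between a high and a low gene are understated. Of the markers fixed for HEL cells, all 7 erythroid genes (5.52 to 9.72 mean log2 CPM) and all 5 megakaryocyte genes (5.86 to 10.5) were above 1 CPM. Of the T cell genes only CD3G was listed, at -3.66, and the 3 fibroblast genes lay between -3.40 and -0.80. Of the B cell genes, CD79A, a chain of the B cell receptor complex, was above 1 CPM at 2.32.

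HOX genes encode homeodomain transcription factors that set position along the body axis. In humans they lie in 4 clusters, within which genes follow each other in the order of their numbers, and genes of the same number in different clusters (a paralog group) are the closest relatives. In blood, HOX genes of the A and B clusters are expressed in stem and progenitor cells and fall as cells mature, and the pair of HOXA9 and its cofactor MEIS1 is well known from acute myeloid leukemia. HOX proteins bind DNA together with the TALE homeodomain proteins of the PBX, MEIS and PKNOX families, while trithorax proteins such as KMT2A (MLL) maintain and Polycomb proteins repress transcription of the clusters.

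With 1 CPM (0 on the log2 scale) as the line for expression, 18 of the 36 HOX genes were expressed, which is 50.0%, against 43.75% of all 31999 genes listed. The clusters differed in this count. In HOXB 9 of 10 genes were at or above 1 CPM, in HOXA 5 of 11, in HOXC 2 of 7 and in HOXD 2 of 8. The median of the mean log2 CPM was 3.06 in HOXB, -1.42 in HOXA, -0.58 in HOXC and -1.81 in HOXD, and it was -0.97 over all genes listed. To compare levels between genes, the CPM was divided by the length of the longest transcript of each gene in kb. On this scale the HOXB genes made up 76.9% of the summed level of the 36 genes, HOXA 11.7%, HOXD 8.77% and HOXC 2.65%. All 36 genes together took 0.0318% of the summed CPM.

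**Figure D1:**
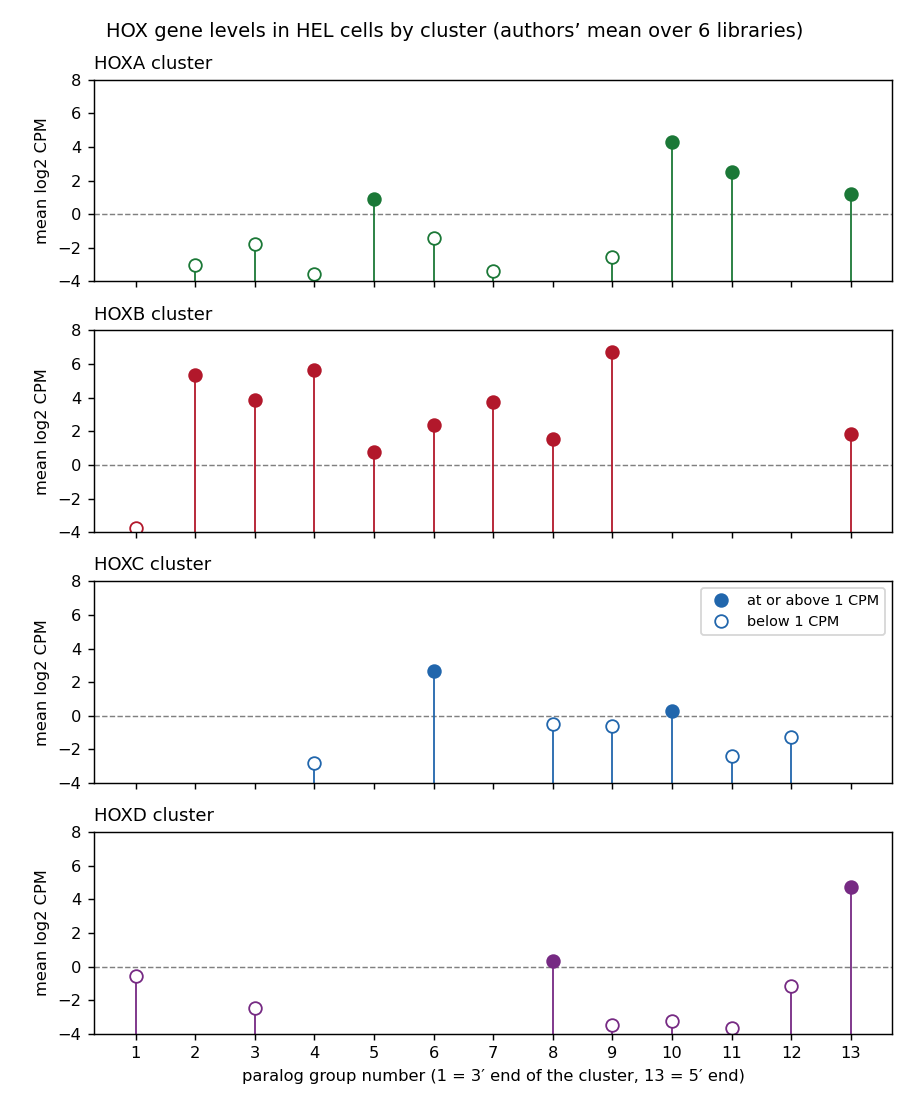
The authors' mean log2 CPM over 6 libraries (vertical axis) of the HOX genes reported, by paralog group number (horizontal axis), with 1 panel per cluster. Filled points are at or above 1 CPM (dashed line) and open points below it, and in HOXB only HOXB1 is open.

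Close to the line of expression, the values just inside were 0.31 (HOXC10) and 0.32 (HOXD8) mean log2 CPM, and those just outside were -0.46 (HOXC8), -0.58 (HOXC9) and -0.59 (HOXD1). The 3 genes just outside were still at 21.0 to 23.0 estimated reads per library, offset included, so they were low rather than absent. At the other end 7 genes (HOXA2, HOXA4, HOXA7, HOXB1, HOXD9, HOXD10 and HOXD11) stood fewer than 10 reads, summed over all 6 libraries, above the lowest level listed.

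**Figure D2:**
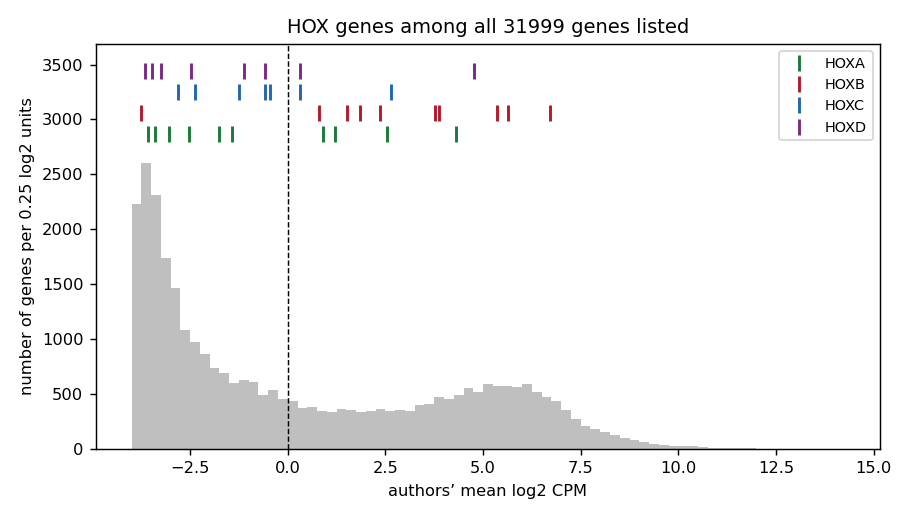
Histogram of the authors' mean log2 CPM of all 31999 genes listed, in bins of 0.25, with the HOX genes reported as ticks above it, 1 row and colour per cluster. The dashed line is 1 CPM, and the HOXB ticks lie to the right of it apart from HOXB1 at -3.76.

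In the HOXB cluster on chromosome 17, HOXB9 had the highest level of any HOX gene per kb of the longest transcript, per kb of coding sequence and in plain CPM, and came second to HOXB2 per kb of the median transcript (40.6 against 43.7 CPM per kb). Its mean log2 CPM was 6.72, above 93.1% of all genes listed, and its level was 40.6 CPM per kb of the longest transcript, the length used below where no other is named (chromosome 17, 48621156 to 48626358, minus strand, GRCh38, GENCODE 44). HOXB4, known for expanding hematopoietic stem cells when overexpressed, followed with 5.63 on the log2 CPM scale and 24.8 CPM per kb (48575507 to 48578350, minus strand). HOXB2, a gene of the 3′ part of the cluster known from hindbrain patterning, was at 5.35 and 24.2 CPM per kb (48540894 to 48545109, minus strand). These 3 genes made up 63.1% of the summed level per kb of all 36 HOX genes, or 53.2% per kb of the median transcript. HOXB3, between HOXB2 and HOXB4, was lower than both at 3.87 mean log2 CPM and 3.48 CPM per kb, so that HOXB4 was 7.12 times as high per kb, but 2.40 times per kb of the median transcript and 3.39 times in plain CPM. HOXB7 reached 9.94 CPM per kb (3.76 mean log2 CPM), or 25.6 CPM per kb of the median transcript, next to 24.8 for HOXB4 on that scale, and HOXB6 2.61 (2.35). HOXB8, HOXB13 and HOXB5 were lower, at 1.32, 1.19 and 0.929 CPM per kb. HOXB13, the most 5′ gene of the cluster and known from prostate and hindgut, was at 1.85 mean log2 CPM. HOXB1 at the 3′ end was the only HOXB gene below 1 CPM, and its value was the floor of the table.

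In the HOXA cluster on chromosome 7, the expressed genes included HOXA5 in the middle and HOXA10, HOXA11 and HOXA13 at the 5′ end. HOXA10, which acts in myeloid and megakaryocyte progenitors, was the highest at 4.31 mean log2 CPM and 7.79 CPM per kb (chromosome 7, 27170605 to 27180261, minus strand). HOXA11, HOXA13 and HOXA5 had a mean log2 CPM of 2.53, 1.21 and 0.90. HOXA9 (27162438 to 27175180, minus strand), the gene next to HOXA10, was at -2.53, which is 19 reads over the 6 libraries above the lowest level. Per kb, HOXA10 was 92.6 times as high as HOXA9, and 65.8 times with the median in place of the longest transcript. Some reads of this pair may be hard to assign to a single gene. Of the exon bases of HOXA10, 9.93% are also exon bases of the annotated readthrough gene HOXA10-HOXA9 or another gene on the same strand. For HOXA9 this share is 15.9%, and the readthrough had no row. The paper's methods do not say how reads in such bases were counted or left out. Their effect on the fold between HOXA10 and HOXA9 was not tested. The other 5 genes of the cluster (HOXA2, HOXA3, HOXA4, HOXA6 and HOXA7) lay between -3.57 (HOXA4) and -1.42 (HOXA6) on the log2 CPM scale. The values did not fall or rise steadily along the cluster, since low genes stood on both sides of HOXA5.

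In the HOXD cluster on chromosome 2, HOXD13 alone was high. This gene at the 5′ end, known from digit formation, had a mean log2 CPM of 4.76 and 11.2 CPM per kb, the fourth highest of the 36 per kb of the longest transcript and the sixth per kb of the median transcript (chromosome 2, 176092721 to 176095944, plus strand). Its neighbour HOXD12 was at -1.13, and per kb HOXD13 was 62.5 times as high, or 41.6 times with the median transcript. HOXD8 was at 0.32 and HOXD1 at -0.59, while HOXD3, HOXD9, HOXD10 and HOXD11 lay between -3.66 (HOXD11) and -2.48 (HOXD3). Without the highest gene of each cluster, the HOXD share of the summed level per kb was 1.54%.

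Promoter sequences are shown for the neighbours that differed most per kb once pairs with a gene fewer than 10 reads above the floor were left out, HOXA10 beside HOXA9 and HOXD13 beside HOXD12. They come from RefSeq (GRCh38.p14) and hold 250 bases before to 50 bases after an annotated start, in the direction of the gene. Of the 36 HOX genes 18 had such an entry, 5 of the expressed and 13 of the others. The 5 were HOXA10, HOXA11, HOXA13, HOXD8 and HOXD13. The only HOXB and HOXC genes with an entry were HOXB1 and HOXC4, both below 1 CPM. The windows of expressed genes thus leave out HOXB, the cluster with the largest share of the summed level. Capitals mark matches to TATAAA (the TATA box), CCAAT (the CCAAT box), AGATAA (bound by GATA factors) or TGATNNAT (a joint site of PBX and HOX proteins), on either strand, where overlapping matches run together. HOXA10 has 2 entries, and the data do not part them.
HOXA10, chr7:27179812-27180111, minus strand: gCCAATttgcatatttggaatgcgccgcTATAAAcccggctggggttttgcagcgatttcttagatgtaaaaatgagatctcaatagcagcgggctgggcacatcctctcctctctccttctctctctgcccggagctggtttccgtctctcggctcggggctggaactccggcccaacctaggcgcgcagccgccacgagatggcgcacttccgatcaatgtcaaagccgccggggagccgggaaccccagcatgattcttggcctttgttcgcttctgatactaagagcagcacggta
HOXA10, chr7:27174271-27174570, minus strand: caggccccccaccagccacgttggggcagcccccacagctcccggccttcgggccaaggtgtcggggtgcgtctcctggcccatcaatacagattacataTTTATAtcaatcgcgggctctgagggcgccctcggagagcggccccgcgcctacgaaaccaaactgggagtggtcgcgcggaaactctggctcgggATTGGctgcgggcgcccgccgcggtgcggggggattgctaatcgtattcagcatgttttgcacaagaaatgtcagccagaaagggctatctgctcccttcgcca
HOXA9, chr7:27165488-27165787, minus strand: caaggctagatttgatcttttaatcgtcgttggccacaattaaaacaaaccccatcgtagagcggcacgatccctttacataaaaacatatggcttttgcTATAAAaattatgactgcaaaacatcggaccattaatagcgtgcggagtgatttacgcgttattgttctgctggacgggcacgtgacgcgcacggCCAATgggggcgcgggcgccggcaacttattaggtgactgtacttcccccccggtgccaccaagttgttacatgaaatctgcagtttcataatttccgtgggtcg
HOXD13, chr2:176092471-176092770, plus strand: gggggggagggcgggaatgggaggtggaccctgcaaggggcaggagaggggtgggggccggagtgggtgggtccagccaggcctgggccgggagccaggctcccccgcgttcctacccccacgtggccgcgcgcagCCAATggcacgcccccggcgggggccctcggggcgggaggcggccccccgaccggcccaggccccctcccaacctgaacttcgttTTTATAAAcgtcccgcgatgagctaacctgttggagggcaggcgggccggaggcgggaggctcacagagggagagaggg
HOXD12, chr2:176099545-176099844, plus strand: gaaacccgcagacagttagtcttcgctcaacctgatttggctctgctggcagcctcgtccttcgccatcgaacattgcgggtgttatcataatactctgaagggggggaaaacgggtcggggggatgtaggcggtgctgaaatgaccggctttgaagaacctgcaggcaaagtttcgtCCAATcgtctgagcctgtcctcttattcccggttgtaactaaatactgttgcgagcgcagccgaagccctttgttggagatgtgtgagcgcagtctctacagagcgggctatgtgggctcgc

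The HOXD13 window holds TATAAA 27 bases before the start and CCAAT 114 bases before it, while the HOXD12 window holds CCAAT but not TATAAA. The HOXA9 window holds TATAAA 150 bases before its start and CCAAT 55 bases before, and HOXA9 was at -2.53 mean log2 CPM. Of the 2 HOXA10 windows, 1 holds TATAAA 222 and CCAAT 249 bases before its start. The other holds both on the opposite strand, 150 and 54 bases before its start. Of all 35116 promoter windows 11.5% held TATAAA, 34.6% CCAAT, 10.3% AGATAA and 7.40% TGATNNAT. Over the 6 windows of the 5 expressed HOX genes, 3 held TATAAA, 4 CCAAT, and none AGATAA or TGATNNAT. Over the 19 windows of the other 13 genes, 2 held TATAAA, 12 CCAAT, 2 AGATAA and 3 TGATNNAT. The ratio of observed to chance CpG dinucleotides had a median of 0.862 over the windows of the expressed and 0.861 over those of the other genes, where the median of all promoters was 0.579. It ranged from 0.6002 to 1.01 in the expressed and from 0 to 1.27 in the others. Of the 19 windows of the others 4 lay below the median of all promoters, 3 of HOXA3 and 1 of HOXB1. HOXA3 alone has 7 of the 19 windows, and HOXA10 has 2 of the 6, both with TATAAA and CCAAT, so the windows are not separate genes. A match of letters is no evidence that a factor was bound.

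In the HOXC cluster on chromosome 12, HOXC6 was the highest gene at 2.64 mean log2 CPM and 2.12 CPM per kb (chromosome 12, 53990624 to 54030823, plus strand), and HOXC10 was at 0.31. The 5 genes below 1 CPM ranged from -2.82 (HOXC4) to -0.46 (HOXC8), with HOXC11, HOXC12 and HOXC9 at -2.37, -1.25 and -0.58. Reads of HOXC4 and HOXC6 are hard to tell apart in part, because their exons overlap on the same strand. Of the exon bases of HOXC6, 16.1% are also exon bases of another gene on that strand, mostly HOXC4. For HOXC4, the lower gene, the share is 17.5%, mostly HOXC6.

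**Figure D3:**
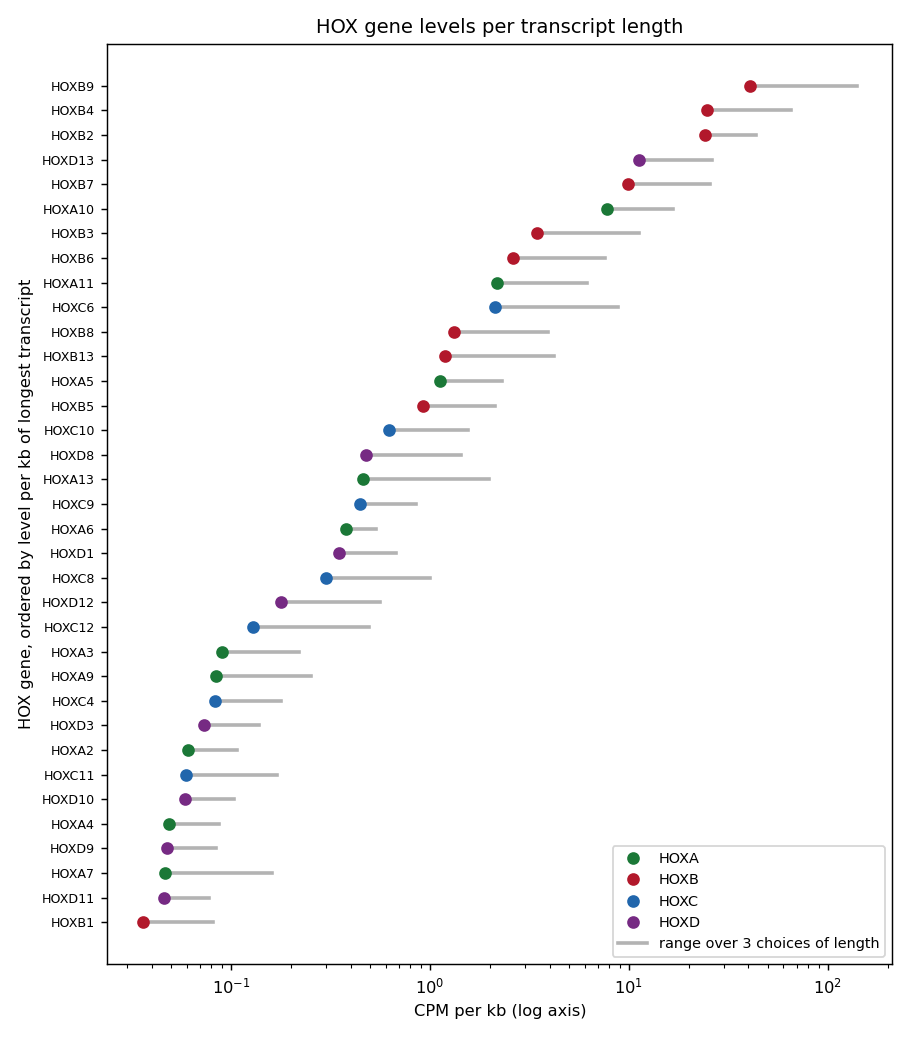
Level per length in CPM per kb (horizontal log axis) of the HOX genes reported, ordered by the value for the longest transcript (points, coloured by cluster). Grey lines span the values for 3 choices of length (longest transcript, median transcript, coding sequence), and HOXB9, HOXB4 and HOXB2 lead with 40.6, 24.8 and 24.2 CPM per kb of longest transcript.

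Across clusters, genes of the same number stood at very different levels, given here as mean log2 CPM, while shares are per kb. In paralog group 9 HOXB9 was at 6.72 mean log2 CPM, HOXC9 at -0.58, HOXA9 at -2.53 and HOXD9 at -3.48. Group 9 made up 29.1% of the summed HOX level per kb, nearly all of it from HOXB9. Groups 4 and 2 followed with 17.5% and 17.1%, from HOXB4 and HOXB2. Group 13 was the only group with all 3 listed members expressed, HOXD13 (4.76), HOXB13 (1.85) and HOXA13 (1.21). In group 10 the HOXA gene led, with HOXA10 at 4.31, HOXC10 at 0.31 and HOXD10 at -3.25. In group 11 HOXA11 was at 2.53, while HOXC11 and HOXD11 were at -2.37 and -3.66. Group 3 was again led by HOXB, with HOXB3 at 3.87, HOXA3 at -1.77 and HOXD3 at -2.48. In group 6 HOXC6 (2.64) and HOXB6 (2.35) lay above HOXA6 (-1.42), and per kb HOXB6 was at 2.61 and HOXC6 at 2.12 CPM per kb. In group 7 HOXB7 was at 3.76 and HOXA7 at -3.40, and in group 8 HOXB8, HOXD8 and HOXC8 were at 1.52, 0.32 and -0.46. In group 5 both listed members were close together, HOXA5 at 0.90 (1.12 CPM per kb) and HOXB5 at 0.79 (0.929 CPM per kb). Group 12 had no expressed member, with HOXD12 at -1.13 and HOXC12 at -1.25. By place in the cluster, groups 1 to 3 held 23.0% of the summed level per kb, groups 4 to 8 31.1% and groups 9 to 13 45.9%.

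The clusters also hold noncoding genes, most of them antisense to the HOX genes. Of 17 listed, 3 were at or above 1 CPM. HAGLR, antisense beside HOXD1, was at 1.68 mean log2 CPM and 0.767 CPM per kb, HOXB-AS1, which overlaps HOXB2 and HOXB3, at 1.02 and 2.52 CPM per kb, and HOXA11-AS at 0.30 and 0.709 CPM per kb. HOTTIP, transcribed away from HOXA13, lay at -0.04, HOTAIRM1 of the HOXA cluster at -0.96, and HOTAIR of the HOXC cluster at -3.48 (0.0369 CPM per kb, the lowest per kb of these genes). No row was listed for the miRNA genes of the clusters (MIR10A, MIR10B, MIR196A1, MIR196A2, MIR196B and MIR615), which poly(A) libraries are not made to capture. The overlaps touch several values given above. In 11 of the 36 HOX genes at least 10% of the exon bases are exon bases of a gene on the other strand, and in 7 of a gene on the same strand. HOXB6 is among these 7, with 16.6%, mostly HOXB3. The strand setting of the authors' counting is not given in the sources used here, so for HOXA7 (62.5% of exon bases, mostly HOXA-AS3), HOXD1 (60.1%) and HOXA6 (39.3%) reads of the opposite strand cannot be told apart. HOXB7, HOXB8, HOXB9, HOXB13 and HOXD13 are among the 13 HOX genes with no such overlap on either strand.

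Genes around the clusters were read from a list of 13 neighbours, of which 12 had a row (EVX1 had none) and 7 were at or above 1 CPM. MTX2 beside HOXD was the highest per kb (5.91 mean log2 CPM, 37.9 CPM per kb) and EVX2, the gene next to HOXD13, the lowest (-3.48, 0.0210 CPM per kb). HOXD13 thus stood between EVX2 at -3.48 and HOXD12 at -1.13. Next to HOXB13, PRAC1 was at -3.57 and PRAC2 at -0.74.

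The TALE cofactors were expressed in most cases, 7 of 9 at or above 1 CPM. PBX2 was the highest (7.10 mean log2 CPM, 42.4 CPM per kb), MEIS1 was at 4.49 (4.40 CPM per kb), PBX3 at 4.56 (8.12 CPM per kb) and MEIS3 the lowest per kb at -0.66 (0.289 CPM per kb). All 12 genes of the trithorax side were above 1 CPM. The name is loose, since this list also holds DOT1L and MLLT genes. Per kb they ran from DOT1L (6.56, 12.3 CPM per kb) to PSIP1 (9.88, 279.6 CPM per kb), and KMT2A was at 7.81 (13.4 CPM per kb). All 17 genes of the Polycomb side were above 1 CPM too, with EZH2, the methyltransferase of PRC2, at 6.16 (15.9 CPM per kb). RBBP4 was the highest of them (8.87, 59.2 CPM per kb) and CBX7 the lowest (0.11, 0.262 CPM per kb). CTCF, which binds the boundaries within HOX clusters, was at 6.92 (25.2 CPM per kb), and the 4 cohesin genes were between 21.4 (SMC3) and 64.5 (RAD21) CPM per kb. CDX1 (-3.57) and CDX2 (-3.76), which activate central HOX genes in the embryo, were at or near the floor, and CDX4 had no row.

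**Figure D4:**
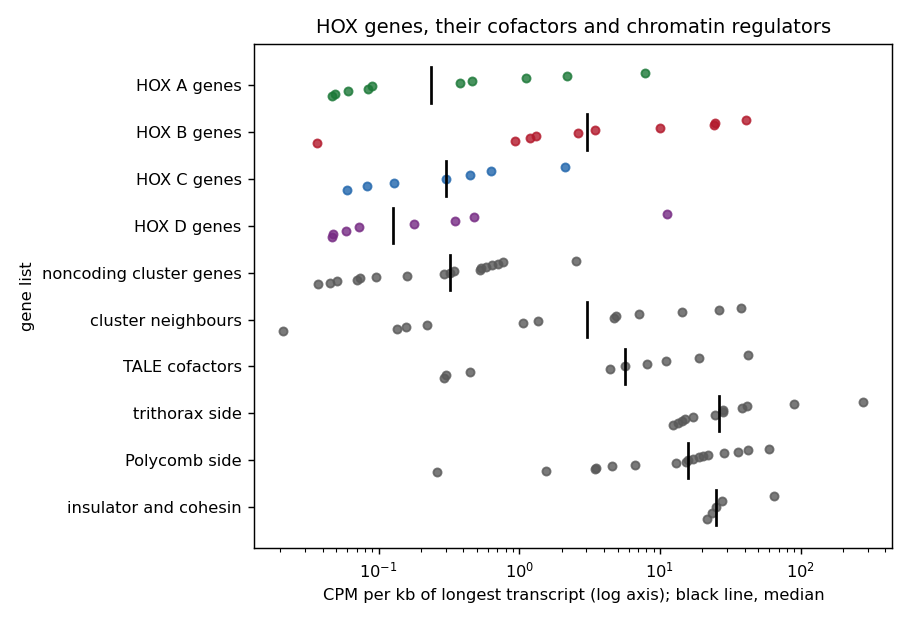
Level in CPM per kb of the longest transcript (horizontal log axis) of the HOX genes reported of each cluster (colours) and of context genes (grey), 1 point per gene, with the median of the points drawn for each list as a black line. The trithorax, Polycomb and cohesin lists lie mostly above 10 CPM per kb, a level that only HOXB9, HOXB4, HOXB2 and HOXD13 reach among the HOX genes.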

How the data were processed

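RNA-seq was made from 3 shCtrl and 3 shTMIGD2 HEL libraries (directional, poly(A) selected), grouped by the titles of the labels. Per the paper's methods and the submitters' processing notes, the authors aligned reads with STAR 2.6.1b to hg38, counted fragments per gene in a refSeq annotation with HTSeq 0.6.1 and used DESeq2 (given as version 3.11). The authors deposited 1 table of 31999 genes with the column names of an edgeR test, a tool the submitters' notes also name. Only the mean log2 CPM that the authors deposited for each gene over all 6 libraries was used. Its scaling and offset are not stated. The other columns hold the authors' own comparison (fold change, F, p-value, FDR) and were not used, so the count test planned for the 2 groups was not run.

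CPM was computed as 2 to the power of that mean. Lengths, positions and exon overlaps came from GENCODE 44 (GRCh38, the build of the files), matched by symbol for 22987 genes (71.84%) and for all 36 HOX genes listed. The authors' gene models may differ. The read step was fitted to 9821 genes under 0.14 CPM, which stood at 13 levels, and the fit was tested on simulated data first. The estimate of depth is not a count per library, and precision could not be computed. The HOX genes and the context lists were chosen with earlier results of these data known. By rule, every HOX gene at or above 1 CPM was named (some results are not reported here, though they enter the counts and sums), and of the others the highest and lowest of each cluster; further HOX genes were named after their values were seen. Of each context list the highest and lowest per kb were named, with MEIS1, PBX3, KMT2A, EZH2 and CTCF; further context genes were named for their place beside a HOX gene. Python 3.11.15, pandas 2.3.3, numpy 2.4.6 and matplotlib 3.10.9 were used.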

Additional observations from a re-analysis of the deposited data

How the results depend on the processing

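With the line for expression at 2 CPM (1 on the log2 scale), 1 HOXC and 1 HOXD gene remained, and at 0.5 CPM (-1) 4 HOXC genes passed. The counts of HOXA, HOXB and all HOX genes stayed within 1.5 times of those reported at both lines and with the noncoding genes added. Shares of the summed level moved as follows. Without division by length, HOXA, HOXB, HOXC and HOXD held 13.2%, 74.4%, 3.02% and 9.39%. Per kb of coding sequence they held 10.4%, 78.4%, 3.40% and 7.84%, and per kb of the median transcript 13.5%, 76.1%, 4.05% and 6.34%. Without the highest gene of each cluster they held 11.0%, 85.4%, 2.05% and 1.54%, so HOXD13 accounts for most of the HOXD share by the construction of this alternative. HOXB held the largest share in each of these settings. Of the 10 highest genes per kb, 9 were also among the 10 highest in each of the other 3 scales.

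No paired analysis was possible because the 1 column used is the authors' mean over all 6 libraries. The authors' own comparison columns and values from the paper's supplements were left unused by choice, so the comparison of shTMIGD2 with shCtrl and its alternatives (the other count tool, no low-count filter, each replicate left out) were not run. Depth limits the genes near the floor, whose differences of a few reads cannot be ordered.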
